A study of Nannochloropsis oceanica with 36 samples.

Results

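In the oil-storing alga Nannochloropsis oceanica, strain IMET1, 5 genes had a deep minimum at 12 h after transfer both with and without nitrogen. They were chosen by their measured levels: in each of 2 media their mean level at 12 h lay at least 2 below the lowest of the other 5 times on the log2(FPKM + 1) scale, which is a difference of 4-fold or more. FPKM, fragments scaled by transcript length and by the mapped fragments of the library, is a level per length and a share of the library. The media also had to differ by under 0.8 on that scale at every time, and by under 0.5 in the mean of 3, 4 and 6 h and in the mean of 24 and 48 h. Of 9756 gene models, 9647 reached 1 FPKM or more in 3 or more libraries, and 5 of these met the criteria (0.0518%). All 5 had at least 4.89 FPKM in each of the 30 libraries of the other times. The 12 h minimum and the differences between media chose the genes, so they are described here without a test.

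Mid-logarithmic cells from modified f/2, a seawater medium enriched with nitrate and other nutrients, were washed in seawater and transferred in equal numbers to medium with nitrogen (N-replete) or without it (N-deprived). Cultures of both kinds were lit without dark periods at about 50 µmol photons per m2 and s, kept at 25 °C and bubbled with air holding 1.5% CO2. RNA with poly(A) tails was sequenced at 3, 4, 6, 12, 24 and 48 h after the move, with 3 replicates in each medium at each time. This gives 36 libraries in 12 groups of 3. The labels do not say whether a replicate number follows 1 culture over time. The labels give the source as whole cells of 1 strain and the protocol describes total RNA, while another label gives the molecule as nuclear RNA, and the values do not settle which applies. No sample from before the wash and move was used here.

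Nannochloropsis is a single-celled eustigmatophyte, a lineage of the stramenopiles, studied for its oil. When nitrogen runs out such cells stop dividing, dismantle part of their photosynthetic apparatus and store carbon as triacylglycerol, and the transcripts of those pathways shift over hours to days. The washing and the transfer to new medium were shared by both groups of cultures. The level of a transcript reflects both synthesis and decay, and FPKM reports its share of the library and not copies per cell. The deposited values carry identifiers without gene names for these 5 genes, so no function is given for them.

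The libraries of 12 h stood apart as a whole. On the first principal component over all genes tested the 6 libraries of 12 h lay between 96.9 and 102.1, and the 30 others between -44.4 and 5.04. Over all genes the median level at 12 h was below the mean of the other times by 0.69 (log2 scale) in N-replete and by 0.68 in N-deprived medium. The 12 h mean was the lowest of the 6 times in both media for 5144 of the genes tested (53.3%) and the highest for 1216 (12.6%). A fall of at least 2 below every other time in both media was met by 12 genes (0.124%), and in N-replete or N-deprived medium taken singly by 24 (0.249%) and 22 (0.228%), whereas a rise of at least 2 above every other time in both media was met by 407 (4.22%). The minima of the 5 genes are therefore given below also after rescaling of the libraries, while shares, held-out values and the values of flanking and most similar genes are as deposited. The labels do not say whether libraries of 1 time were prepared or sequenced together, so the time and such a shared step cannot be told apart.

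The 5 genes lie on 5 different scaffolds. Scaffold00009.g640 spans bases 832106 to 834613 (2508 bp), scaffold00295.g8501 spans 503729 to 505721 (1993 bp), and scaffold00341.g9711 spans 27346 to 29643 (2298 bp). Scaffold00252.g7043 spans 66017 to 70911 (4895 bp) and scaffold00080.g2496 spans 18237 to 23581 (5345 bp). The files give only the ends of each locus, so a length may include introns, and the sources used here name no genome build, exons or strand. Their median locus length of 2508 bp compares with 2135 bp over all genes tested, and their median level at the other 5 times of 50.2 FPKM with 28.6 FPKM.

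The most abundant of the 5 was scaffold00009.g640. In N-replete medium its 3 libraries read 185, 183 and 197 FPKM at 3 h, 129, 134 and 136 at 4 h, 79.9, 67.2 and 73.4 at 6 h, 18.01, 9.23 and 14.6 at 12 h, 80.9, 85.6 and 78.3 at 24 h, and 76.5, 72.9 and 77.2 at 48 h. In N-deprived medium they read 217, 219 and 218 FPKM at 3 h, 141, 156 and 145 at 4 h, 60.7, 74.4 and 70.0 at 6 h, 11.2, 11.8 and 8.76 at 12 h, 100.5, 96.8 and 87.6 at 24 h, and 80.7, 77.6 and 78.0 at 48 h. The mean was lower at each step from 3 to 12 h, and at 24 h it was above that of 6 h in both media. All 12 h libraries, up to 18.01 FPKM, lay below all 30 others, which began at 60.7 FPKM. The 12 h mean was 13.9 ± 4.43 FPKM (SD, n = 3) in N-replete and 10.6 ± 1.60 (SD, n = 3) in N-deprived medium, and on the FPKM + 1 scale the group stood 5.13-fold and 6.01-fold below the lowest other time. Neighbouring times in the order of levels did not overlap between libraries, except 48 and 6 h in N-replete medium.

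Scaffold00295.g8501 differed in where it began and how far it came back. Its N-replete libraries read 37.7, 40.5 and 36.7 FPKM at 3 h, 41.0, 47.3 and 47.3 at 4 h, 19.0, 18.2 and 17.95 at 6 h, 2.28, 1.44 and 1.71 at 12 h, 13.3, 12.4 and 13.2 at 24 h, and 27.1, 25.9 and 27.6 at 48 h. The N-deprived libraries read 54.6, 50.1 and 47.9 FPKM at 3 h, 41.9, 50.4 and 43.9 at 4 h, 12.9, 13.5 and 15.5 at 6 h, 1.36, 1.36 and 1.48 at 12 h, 13.6, 11.2 and 12.0 at 24 h, and 22.3, 23.7 and 20.6 at 48 h. It was the only one of the 5 whose highest mean fell at 4 h rather than 3 h, and only in N-replete medium, where 45.2 ± 3.61 FPKM at 4 h stood against 38.3 ± 1.98 at 3 h (SD, n = 3) with no overlap. In N-deprived medium the libraries of 3 and 4 h overlapped. At 48 h its mean was 70.2% of that at 3 h with nitrogen and 43.7% without it.

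Scaffold00341.g9711 came nearest to the floor. Its N-replete libraries read 37.9, 37.3 and 37.4 FPKM at 3 h, 24.0, 25.7 and 22.7 at 4 h, 5.95, 5.58 and 7.52 at 6 h, 0.369, 0.370 and 0.481 at 12 h, 6.19, 5.39 and 6.35 at 24 h, and 7.64, 8.66 and 8.65 at 48 h. The N-deprived libraries read 42.5, 41.6 and 42.7 FPKM at 3 h, 24.6, 30.1 and 27.7 at 4 h, 6.17, 6.63 and 6.80 at 6 h, 0.522, 0.313 and 0.388 at 12 h, 5.63, 4.89 and 5.49 at 24 h, and 9.21, 9.17 and 8.01 at 48 h. At 12 h it held 1.08% of its 3 h level with nitrogen and 0.964% without it, the least of the 5. With a level this close to 0 the added 1 FPKM compresses the fall: the minimum of 2.31 and 2.17 on the log2(FPKM + 1) scale became 3.59 and 3.44 with 0.1 added. Its 12 h values rest on few reads, roughly 6 to 12 fragments a library by an estimate that is not a bound.

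In N-replete medium scaffold00252.g7043 read 95.4, 96.2 and 100.5 FPKM at 3 h, 61.6, 62.0 and 59.7 at 4 h, 21.2, 17.0 and 23.3 at 6 h, 5.14, 2.36 and 4.55 at 12 h, 36.1, 34.1 and 38.9 at 24 h, and 33.0, 30.7 and 36.2 at 48 h. In N-deprived medium it read 110.0, 111.6 and 109.2 FPKM at 3 h, 56.6, 63.9 and 59.0 at 4 h, 19.6, 21.0 and 18.5 at 6 h, 2.84, 3.05 and 3.23 at 12 h, 24.8, 25.7 and 24.3 at 24 h, and 39.2, 38.7 and 37.7 at 48 h. As for scaffold00009.g640, 6 h was the lowest of the other times in both media. The level of 24 h was above that of 6 h with no overlap in either medium, and it was higher in N-replete than in N-deprived medium.

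The shallowest minimum was that of scaffold00080.g2496. Its N-replete libraries read 73.4, 71.5 and 71.2 FPKM at 3 h, 58.5, 64.3 and 63.9 at 4 h, 28.9, 33.2 and 39.0 at 6 h, 9.74, 5.30 and 8.25 at 12 h, 33.4, 34.9 and 37.0 at 24 h, and 37.6, 38.9 and 43.9 at 48 h. The N-deprived libraries read 99.95, 96.5 and 95.3 FPKM at 3 h, 73.0, 85.9 and 82.5 at 4 h, 37.5, 39.3 and 40.9 at 6 h, 7.12, 7.16 and 5.09 at 12 h, 31.3, 27.5 and 31.8 at 24 h, and 31.8, 30.5 and 26.7 at 48 h. The highest 12 h library, 9.74 FPKM, stayed below the lowest other library, 26.7 FPKM, and the fall of 2.01 and 2.05 (log2 scale) put it just inside the threshold. From 6 h on the N-replete levels of 6 h overlapped those of 24 h and those of 48 h. In N-deprived medium the levels of 24 and 48 h overlapped.

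**Figure D1:**
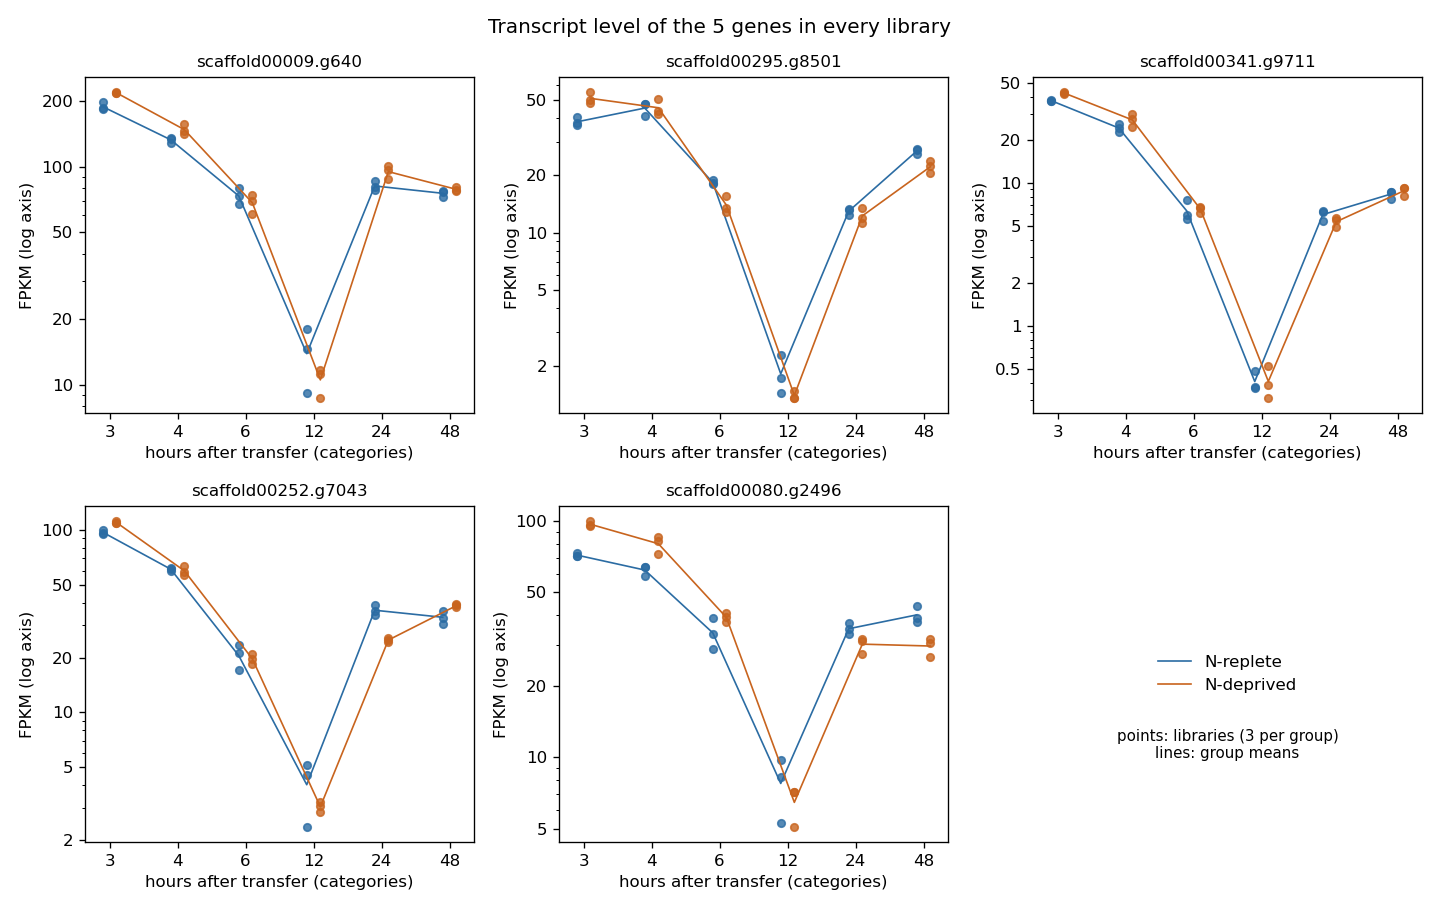
FPKM on a log axis against hours after transfer, spaced as categories, for each of the 5 genes. Points are libraries (3 per group), lines join group means, blue is N-replete and orange N-deprived. In each panel the 6 libraries of 12 h lie below the 30 others.

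Summed over the 5 genes, the share of all FPKM in a library was 0.0739% ± 0.000997 at 3 h in N-replete medium, 0.00494% ± 0.00152 at 12 h and 0.0288% ± 0.00118 at 24 h (SD, n = 3). In N-deprived medium it was 0.0933% ± 0.00180, 0.00433% ± 0.000299 and 0.0315% ± 0.00106 at those times (SD, n = 3). At 48 h the shares were 0.0324% and 0.0334%. The 5 genes together were thus at less of the library at 48 h than at 3 h in both media.

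The depth of the minimum ranged from 2.01 to 2.36 (log2 scale) in N-replete medium, with a median of 2.31, and from 2.05 to 2.59 in N-deprived medium, with a median of 2.36. Just outside the threshold with the media criteria met were scaffold00043.g2053 (2.00 and 1.93, the first rounded up from below the threshold), scaffold00330.g9193 (1.92 and 2.66) and scaffold00096.g3594 (2.01 and 1.88). Another 7 of the 12 genes with a fall of at least 2 in both media were left out because the media differed too much, and the media criteria alone were met by 4812 genes (49.9%). As deposited, lowering the threshold took the set from 5 genes at 2 to 17 at 1.5 and 249 at 1. Rises at 12 h numbered 408 at 1 and 287 at 2 (2.98% of all genes) under the same media criteria. These counts move with the scaling: without the media criteria, 364 genes were at least 1 below every other time in both media as deposited, 27 after median-ratio centring and 77 after quantile normalization, while genes at least 2 above numbered 407, 563 and 484.

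**Figure D2:**
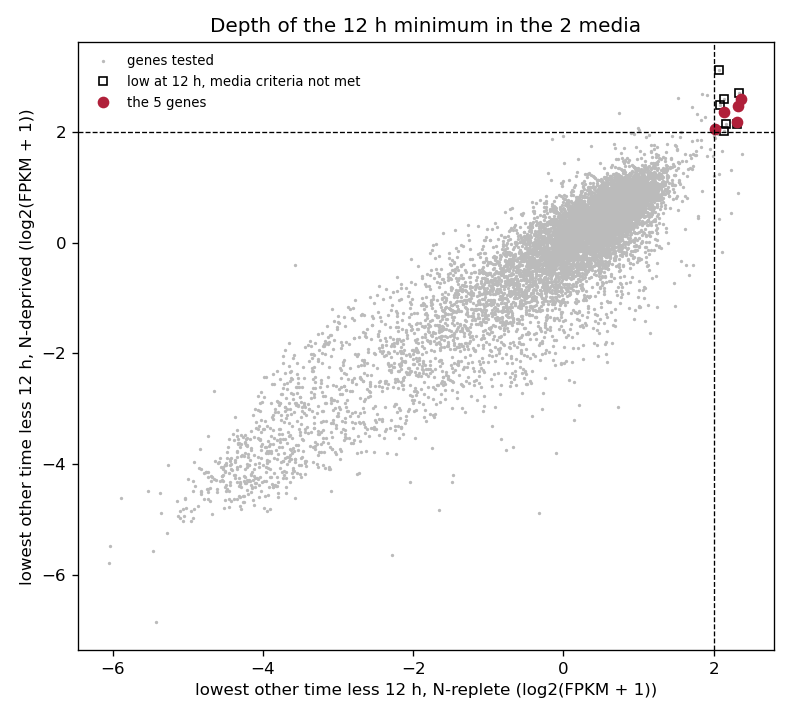
Lowest other group mean less the 12 h mean, on the log2(FPKM + 1) scale, in N-replete (horizontal) and N-deprived medium (vertical) for the 9647 genes tested. Dashed lines mark 2, red points are the 5 genes and open squares the 7 genes whose media differed too much. The 5 genes lie at the sparse upper right edge, at 2.01 to 2.59.

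The size of the minimum depended on the scaling of the libraries. With libraries centred on the median ratio over genes, which brought the median of all genes at 12 h to -0.04 and -0.03, the fall of the 5 genes was 1.34 to 1.99 and none reached 2. With quantile normalization, where that median was -0.31 in both media, it was 1.51 to 2.56, and scaffold00295.g8501 and scaffold00341.g9711 still passed the rule. It then chose 5 genes again, of which the other 3, scaffold00009.g608, scaffold00127.g4479 and scaffold00341.g9833, are not among the 5 as deposited. In all 3 scalings 12 h was the lowest of the 6 times for 5 of 5 genes in both media. As deposited the rule fixes this count, and the rescalings reuse the same libraries, so it is not an independent test. The share of all genes lowest at 12 h is not given for the rescaled values. Ranked by the smaller fall of both media, the 5 genes stood at place 11 or better as deposited, 13 or better after centring and 22 or better after quantile normalization.

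**Figure D3:**
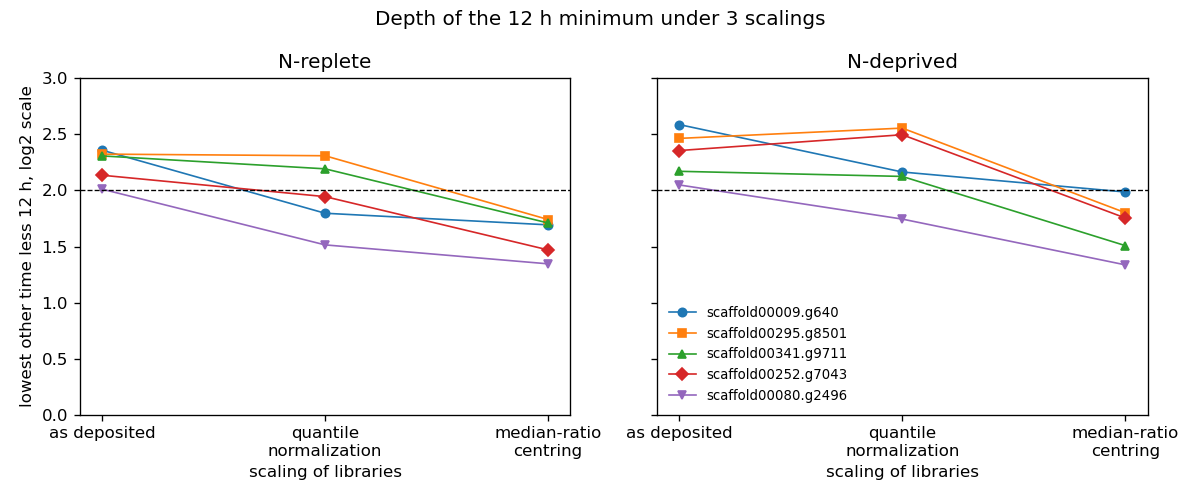
Lowest other time less 12 h on the log2 scale for each of the 5 genes in N-replete (left) and N-deprived medium (right), as deposited, after quantile normalization and after median-ratio centring. The dashed line marks the threshold of 2. After centring all 10 values lie under the line, between 1.34 and 1.99.

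The rule was also applied with 1 replicate number held out in turn, and the held-out libraries were then read. Without replicate 1 the rule chose 9 genes, of which 3 were again at least 2 below all other times in both media in replicate 1 alone, against 0.0622% of all genes tested. Without replicate 2 it chose 4 genes, of which 3 were low again (0.145% of all genes), and without replicate 3 it chose 4, of which 4 were low again (0.155%). In each case all chosen genes, 17 in sum with repeats, were at their lowest at 12 h in the held-out libraries in both media, as were 50.2%, 52.6% and 51.4% of all genes tested in replicates 1, 2 and 3. The least fall there was 1.26, in replicate 1. The genes scaffold00009.g640, scaffold00295.g8501 and scaffold00341.g9711 were chosen and low again each time, while scaffold00252.g7043 and scaffold00080.g2496 were not low again in replicate 1. Scaffold00252.g7043 was not chosen without replicate 2, and scaffold00080.g2496 was chosen neither without replicate 2 nor without replicate 3.

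In the 12 h libraries of N-replete medium the value of replicate 1 was the highest of 3 for 4 of the 5 genes, as for 21.3% of all genes tested, and replicate 2 was the lowest for 4 of 5, as for 41.2% of all genes. The widest spread among libraries of 12 h was that of scaffold00009.g640, 0.89 on the log2 scale in N-replete medium, followed by scaffold00252.g7043 (0.87) and scaffold00080.g2496 (0.77). Without replicate 2 of N-replete medium at 12 h the rule kept 3 genes and lost scaffold00252.g7043 and scaffold00080.g2496. In N-deprived medium no 1 replicate was lowest for more than 2 of the 5 genes. Over all genes tested, replicate 3 of 12 h was the lowest of 3 in that medium for 64.8%. In N-replete medium replicate 3 of 12 h was the highest for 64.5% of all genes and for 1 of the 5.

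Times other than 12 h were tested against each other on the log2(FPKM + 1) scale, so that folds are of FPKM + 1 and understate those of low levels, as the rule did not compare them, although the lowest of them set the depth of the minimum. From 3 to 6 h the level fell in 5 of 5 genes in the mean of both media, against 37.0% of all genes tested (limma, adjusted p under 0.05), and by at least 1 on the log2 scale in all 5, against 5.15% of all genes. The median change of the 5 was -1.51, that of all genes 0.01. The largest fall was that of scaffold00341.g9711, by 2.46 (SE 0.065, 5.51-fold, limma adjusted p = 1.99e-24). Scaffold00252.g7043 fell by 2.32 (SE 0.088, 4.98-fold, limma adjusted p = 1.12e-20), and scaffold00009.g640 by 1.51 (SE 0.087, limma adjusted p = 4.16e-16). Scaffold00295.g8501 fell by 1.41 (SE 0.065, limma adjusted p = 1.50e-18), with changes of -1.02 with nitrogen and -1.79 without it. Scaffold00080.g2496 fell least, by 1.19 (SE 0.090, limma adjusted p = 2.99e-13). Levels were thus lower at 6 h than at 3 h in both media. By limma 0 of 5 rose, adjusted or at an unadjusted p under 0.05, while 39.3% of all genes rose. No library lies between 6 and 12 h, so whether the fall from 3 to 6 h ran on to the minimum was not tested.

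The same comparison over the 249 genes with a fall of at least 1 at 12 h and the same media criteria gave 167 lower (67.1%) and 21 higher at 6 h than at 3 h, with 22 (8.84%) lower by at least 1 on the log2 scale and a median of -0.26. That set was chosen after its values were seen, from values as deposited, and contains the 5 genes.

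Between 6 and 24 h, on either side of the minimum, the 5 genes went different ways. Scaffold00252.g7043 was higher at 24 h by 0.57 (SE 0.088, limma adjusted p = 7.17e-07) and scaffold00009.g640 by 0.31 (SE 0.087, limma adjusted p = 0.00172), so 2 of 5 rose, against 43.6% of all genes. Scaffold00295.g8501 was lower by 0.32 on the log2 scale, written as -0.32 (SE 0.065, limma adjusted p = 3.91e-05), and scaffold00341.g9711 had a change of -0.16 (SE 0.065, limma adjusted p = 0.0250), so 2 of 5 fell, against 39.4% of all genes. The fall of scaffold00341.g9711 lost its call without replicate 3 of 6 h in N-replete (limma adjusted p = 0.124) or N-deprived medium (0.0537), without replicate 2 of 24 h in N-replete (0.0809) or N-deprived medium (0.0745), and with replicate 2 (0.159) or replicate 3 (0.160) left out throughout. Scaffold00080.g2496 had a change of -0.15 (limma adjusted p = 0.118), and its media pointed opposite ways, at 0.06 and -0.37. The fall of scaffold00080.g2496 was called without replicate 1 of 6 h in N-replete medium (limma adjusted p = 0.0451), without replicate 2 of 12 h there (0.0488) and without the 12 h libraries in the model (0.0219). After the minimum all 5 genes had therefore returned to within 0.57 of their 6 h level in the mean of both media, and none to its 3 h level, with 24 h at 12.6% to 48.7% of 3 h.

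From 24 to 48 h the level rose in 3 of 5 genes, against 33.1% of all genes tested. Scaffold00295.g8501 rose by 0.90 (SE 0.065, 1.87-fold, limma adjusted p = 1.81e-12), in both media, and 99.4% of all genes had a lower change. Scaffold00341.g9711 rose by 0.52 (SE 0.065, limma adjusted p = 6.88e-08), again in both media. Scaffold00252.g7043 had a mean change of 0.24 (SE 0.088, limma adjusted p = 0.0208) from -0.13 with nitrogen and 0.61 without it, and its call was lost after centring (adjusted p = 0.0549) and after quantile normalization (adjusted p = 0.0812). It was also lost without N-replete replicate 2 of 24 h (0.0513) or replicate 3 of 48 h (0.0584), and without replicate 1 (0.109) or 3 (0.115) throughout. Scaffold00080.g2496 had a change of 0.08 (limma adjusted p = 0.459) and scaffold00009.g640 one of -0.19 (limma adjusted p = 0.0683). The latter was called as a fall with the 12 h libraries left out of the model (0.00128), with replicate 1 (0.0278) or 2 (0.00882) of 12 h in N-replete medium left out, after centring (0.0140) and after quantile normalization (0.0157). None of the 5 fell by limma, against 22.9% of all genes, and 1 did at an unadjusted p under 0.05. Of all calls in this step 59.0% were rises as deposited and 47.2% after centring.

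**Figure D4:**
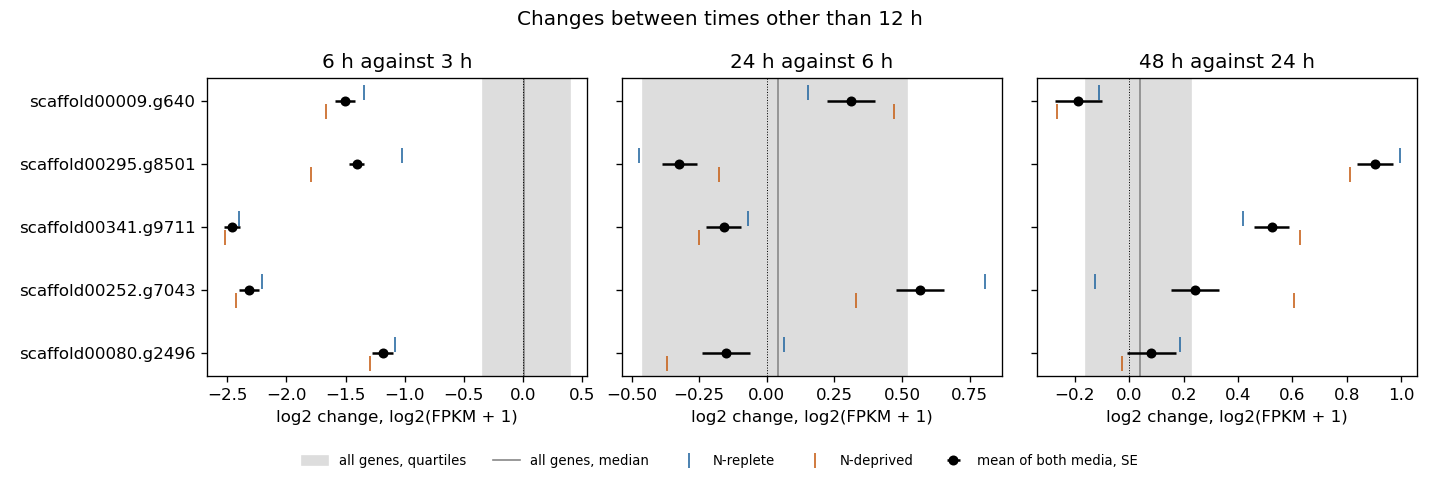
Change on the log2(FPKM + 1) scale between times other than 12 h for each of the 5 genes. Black points are means of both media with the standard error of the limma fit, coloured ticks the change in each medium, and the grey band and line the quartiles and median of all genes tested. From 3 to 6 h all 5 points lie left of the band, between -2.46 and -1.19.

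Media differences were small by the rule and are described only. At 3 h the 3 N-deprived libraries lay above the 3 N-replete ones for 5 of 5 genes (36.8% of all genes) and below them for 0 (16.1%). At 12 h the media overlapped for 5 of 5, while 35.3% of all genes had all N-deprived libraries above and 22.5% below. At 4 h the N-deprived libraries were above for 2 genes (30.3% of all genes) and below for 0 (17.0%). At 6 h the media overlapped for 4, and scaffold00295.g8501 was higher in N-replete medium (19.5% of all genes), with 27.1% of all genes the other way. At 24 h N-replete libraries were above for 2 genes (27.7%) and N-deprived ones for 1 (42.3%), and at 48 h for 2 (31.7%) and 2 (47.8%). The largest single differences, N-deprived less N-replete, were -0.52 for scaffold00252.g7043 at 24 h, 0.43 at 3 h and -0.43 at 48 h for scaffold00080.g2496, and 0.40 for scaffold00295.g8501 at 3 h. Scaffold00080.g2496 thus began higher and ended lower without nitrogen, each time with no overlap between the media.

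Over the 12 group means the 10 pairs among the 5 genes had Pearson correlations of 0.958 to 0.980, which the shared 12 h minimum largely fixes. Over the 10 means without 12 h they were 0.812 to 0.954. These are descriptions over groups that share libraries and the fall from 3 to 6 h. By the same measure over 12 means, the gene most like scaffold00009.g640 was scaffold00026.g1267 (0.993). It was scaffold00026.g1099 for scaffold00295.g8501 (0.990), scaffold00112.g4074 for scaffold00341.g9711 (0.982) and scaffold00214.g6154 for scaffold00252.g7043 (0.990). All 4 had shallower minima, of 1.09 to 1.53. For scaffold00080.g2496 the closest were its own neighbours scaffold00080.g2495 (0.997) and scaffold00080.g2494 (0.993).

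The surroundings of the genes differed. Scaffold00080.g2494, g2495 and g2496 follow each other and were all low at 12 h, with minima of 1.83 and 1.85, 2.31 and 2.13, and 2.01 and 2.05 in N-replete and N-deprived medium. Scaffold00080.g2495 went from 125 ± 20.8 FPKM at 6 h to 24.4 ± 4.38 at 12 h in N-replete and from 157 ± 11.6 to 21.3 ± 1.73 in N-deprived medium (SD, n = 3). It was left out of the set only because the media differed by -0.93 at 48 h and by -0.64 in the mean of 24 and 48 h. Between scaffold00080.g2495 and scaffold00080.g2496 lie 3105 bp. Of the 10 genes that flank the 5, scaffold00080.g2495 was the 1 with a minimum of at least 2 in both media (0.124% of all genes). On its other side scaffold00080.g2496 is 324 bp from scaffold00080.g2497, which had its highest level at 12 h in both media. It stood 0.89 and 0.59 above the highest other time in N-replete and N-deprived medium, and 12.6% of all genes tested were highest at 12 h in both media.

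The genes next to scaffold00341.g9711 and scaffold00252.g7043 on one side also had their highest level at 12 h. Scaffold00341.g9712, bases 29662 to 32411 and 18 bp from scaffold00341.g9711, went from 9.51 ± 2.22 FPKM at 6 h to 117 ± 5.38 at 12 h in N-replete and from 10.1 ± 1.36 to 117 ± 7.32 in N-deprived medium (SD, n = 3). Scaffold00252.g7044, bases 71006 to 75066 and 94 bp from scaffold00252.g7043, went from 5.64 ± 0.324 to 44.0 ± 2.54 FPKM and from 7.40 ± 0.744 to 57.0 ± 3.50 (SD, n = 3). These 2 of the 10 flanking genes were at least 2 above every other time at 12 h in both media, as were 4.22% of all genes tested. On its other side scaffold00341.g9711 is 144 bp from scaffold00341.g9710, which had minima of 1.14 and 1.95 at 12 h and went from 130.1 ± 22.7 FPKM at 6 h to 58.1 ± 5.91 in N-replete and from 109.7 ± 7.29 to 27.9 ± 4.14 in N-deprived medium (SD, n = 3). Scaffold00252.g7043 is 2 bp from scaffold00252.g7042, whose minima at 12 h were only 0.50 and 0.16 in N-replete and N-deprived medium. The 12 h mean was the lowest in both media for 53.3% of all genes tested. From 6 to 12 h scaffold00252.g7042 went from 50.4 ± 1.88 to 16.5 ± 1.60 FPKM in N-replete and from 54.6 ± 2.09 to 16.9 ± 1.58 in N-deprived medium (SD, n = 3). The libraries carry no strand, so reads at the edges of such close genes cannot be assigned by strand. Neither scaffold00009.g640 nor scaffold00295.g8501 had a flanking gene past 2 in the same direction in both media.

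**Figure D5:**
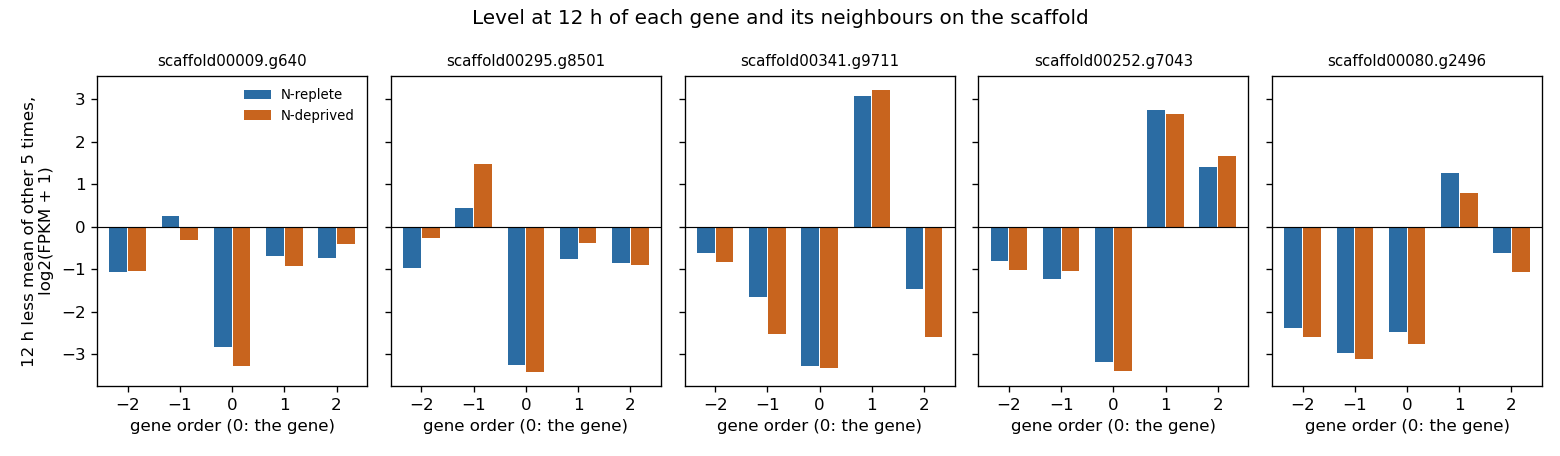
Level at 12 h less the mean of the other 5 times, on the log2(FPKM + 1) scale, for each of the 5 genes (order 0) and the 2 genes on either side, in N-replete (blue) and N-deprived medium (orange). Bars below 0 are lower at 12 h. The bars at order 1 beside scaffold00341.g9711, scaffold00252.g7043 and scaffold00080.g2496 point up, and the 3 bars up to scaffold00080.g2496 point down.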

How the data were processed

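FPKM per gene model were deposited for each library. The submitters' processing notes name Cufflinks 2.0.2 and TopHat2 2.0.4, with no role or setting, and no genome build or annotation is given in the sources used here. Locus starts, counted from 0 in the files, were raised by 1. Libraries were strand-nonspecific, per the labels' protocols. None of the 9756 identifiers matched the organelle gene table used.

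Group means of log2(FPKM + 1) gave the members. A model of 12 group means over 36 libraries (24 residual degrees of freedom) was fitted to 9647 genes with limma 3.58.1 in R 4.3.3 with a trended prior, and p-values, all two-sided, were adjusted by the Benjamini-Hochberg method over all of them. The p-values rest on the spread between replicates pooled over all 12 groups. If 1 culture was sampled at several times, its libraries may not be independent. The pool includes 12 h also for comparisons of other times, and the spread was unequal. In N-replete medium the log2 range of scaffold00009.g640 was 0.89 at 12 h and 0.08 at 48 h. That of scaffold00341.g9711 was 0.11 at 12 h and 0.37 at 6 h. The members, the comparisons and the rule for named genes (deepest minimum, highest level, nearest the threshold, largest change or spread, neighbours) were chosen with earlier results of these data known. Flanking and most similar genes, lower thresholds and the 249 genes were added after values were seen.

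No counts were used here. Relative depth was estimated from genes of low FPKM, taking their values as near multiples of what 1 fragment is worth. With that estimate 82.9% of 1339 values from 58 genes were whole within 0.1, and 64.7% in N-replete replicate 3 of 12 h. The share was counted on the values used for the estimate, so it does not test that assumption. Relative depth ranged from 0.726 to 2.71, and from 0.764 to 1.64 at 12 h. Fragment numbers are rough estimates and not bounds. Locus length raises them, while keeping the largest unit and the smallest depth that fitted lowers them.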

Additional observations from a re-analysis of the deposited data

How the results depend on the processing

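The 5 falls from 3 to 6 h were called under all alternatives run, and no change between times turned its direction. With a pseudocount of 0.1 the 24 h against 6 h falls numbered 1, the median N-deprived minimum was 2.69, 16 of 23 held-out genes were low again, and the rule chose 7 genes of 17 low in both media. After median-ratio centring no gene met the rule (0 members, 0 held out), the median minima were 1.69 and 1.75, and 1 gene fell from 24 to 48 h. After quantile normalization 1 gene fell from 24 to 48 h and the median minima were 1.95 and 2.16. Without the 12 h libraries in the model 1 gene fell from 24 to 48 h, scaffold00009.g640 (limma adjusted p = 0.00128). Leaving out single libraries or replicate numbers gave 3 to 9 members, median minima of 2.11 to 2.35 and 2.31 to 2.43, 1 to 3 falls from 6 to 24 h, 2 to 3 rises and 0 to 1 falls from 24 to 48 h, and 2 rises from 6 to 24 h each time. Gene by gene, replicate numbers did not pair the libraries on average. The mean correlation of deviations for the same number and medium was -0.013 (range -0.34 to 0.41), and 8 of 36 libraries correlated best with their own number. Summed FPKM did follow the number: at every time replicate 3 had the highest sum in N-replete medium and the lowest in N-deprived medium. At 12 h its sum was 618135 against 543755 and 532703 with nitrogen, and 475304 against 512199 and 525082 without it. The correlation therefore does not show that the numbers carry nothing. With a replicate block the counts were 5 falls from 3 to 6 h, 2 rises and 2 falls from 6 to 24 h, and 3 rises and 0 falls from 24 to 48 h. Depth limits scaffold00341.g9711 most, and FPKM without counts allows no counting interval at 12 h.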
